A study of Mus musculus with 9 samples.

Results

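Checkpoint and nectin-binding receptors are surface proteins of lymphocytes that restrain or, in the case of Cd226, promote killing and cytokine release. The 8 genes followed here, Ctla4, Pdcd1, Lag3, Havcr2, Tigit, Cd96, Cd226 and Cd200r1, were found by symbol in the platform annotation of the array, and each had 1 probe set, so no choice between probe sets was needed. They are 8 of the 22180 genes with a probe set of their own. Genes were tested where the probe set was at or above the array median in 3 or more of 9 arrays, which held for 7 of the 8 receptors, all but Pdcd1, and for 12579 genes in all.

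The cells were splenic natural killer (NK) cells of female C57BL/6N mice, enriched with DX5 beads, which bind the integrin CD49b, and kept in culture with 5000 U/ml of human IL-2 for 7 days, with splits on days 4 and 6. The genotypes were Tyk2-/- (Tyk2-deficient), Tyk2K923E (a kinase-inactive Tyk2 mutant) and WT, and every culture received the same IL-2, with no other stimulus named. Tyk2 is a Janus kinase that passes signals of type I interferon, IL-12 and related cytokines to STAT transcription factors. Each of 3 independent experiments gave 1 array per genotype, from cells pooled from 3 to 4 mice. Values are log2 expression after RMA, an array normalisation, and a difference of 1 on this scale is a doubling.

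Nectins and nectin-like proteins on target cells are read by a set of competing receptors on NK cells and T cells. TIGIT and CD96 bind the poliovirus receptor PVR, as does the activating receptor CD226 (DNAM-1), and TIGIT carries inhibitory motifs in its tail. CTLA-4 takes the B7 ligands CD80 and CD86 away from the costimulatory receptor CD28, PD-1 binds CD274 and PDCD1LG2, LAG-3 binds MHC class II and FGL1, TIM-3 (encoded by Havcr2) binds galectin-9 among other ligands, and CD200R1 is an inhibitory receptor for CD200. IL-2 and other activating signals are known to raise several of these receptors on cultured NK cells.

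The array medians lay between 5.42 and 5.48, and the first principal component, with 61.0% of the variance over the genes tested, set the 3 arrays of experiment 1 apart from the 6 of experiments 2 and 3. Tyk2 itself read 9.55, 8.63 and 8.85 in experiments 1 to 3 on arrays labelled Tyk2-/-, 8.63, 8.43 and 8.52 on Tyk2K923E arrays and 8.68, 8.56 and 8.63 on WT arrays. The deleted part of Tyk2 and the positions of the probes are not given in the sources used here, so this reading does not check the labels. All 14 NK cell markers passed the filter, among them Ncr1 (10.8 to 11.6 over the 9 arrays) and Eomes (10.8 to 11.1). The T cell markers Cd3e (10.5 to 11.8), Cd3g (11.1 to 11.8), Cd8a (7.85 to 9.27) and Cd8b1 (7.38 to 8.73) were also well above the medians. Cd4 reached the median on 2 arrays and Foxp3, Cd79a and Ms4a1 on 0. Precision is limited by the number of arrays, and the smallest two-sided p of an exact permutation of 3 against 3 arrays is 0.1 without pairing. Pairing by experiment leaves fewer arrangements, so the smallest exact p is then larger.

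Genotypes were compared with limma over all 12579 genes, paired by experiment number, with p-values adjusted by the Benjamini-Hochberg method. In Tyk2-/- against WT cells, Ctla4 showed the largest difference among the 7 receptors (-0.47), and 0 of the 7 passed an adjusted p of 0.05, where 0.0874% of all genes passed. At an unadjusted p under 0.05 there was 1 receptor (9.08% of all genes), namely Ctla4. In Tyk2K923E against WT cells, Lag3 (-0.53), Cd226 (-0.44), Tigit (-0.34) and Cd96 (-0.26) read below WT and Havcr2 (0.32) above it. There 0 of the 7 passed (0.0874% of all genes), while 5 receptors reached an unadjusted p under 0.05, as did 10.0% of all genes. Between Tyk2-/- and Tyk2K923E cells, Ctla4 differed by -0.54, with 0 of the 7 past the threshold (0.0238% of all genes) and 3 at an unadjusted p under 0.05 (9.68% of all genes). Without pairing limma called 0 receptors in each of these comparisons, against 0.0318%, 0.00795% and 0.0238% of all genes. At an unadjusted p under 0.05 there were then 0 in Tyk2-/- against WT (2.08% of all genes), 2 in Tyk2K923E against WT (4.21%) and 0 between the mutants (2.41%). The comparisons share arrays, so they are not independent of each other. In RNA from a whole culture, fewer cells that carry a receptor and less RNA per cell cannot be told apart.

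**Figure D1:**
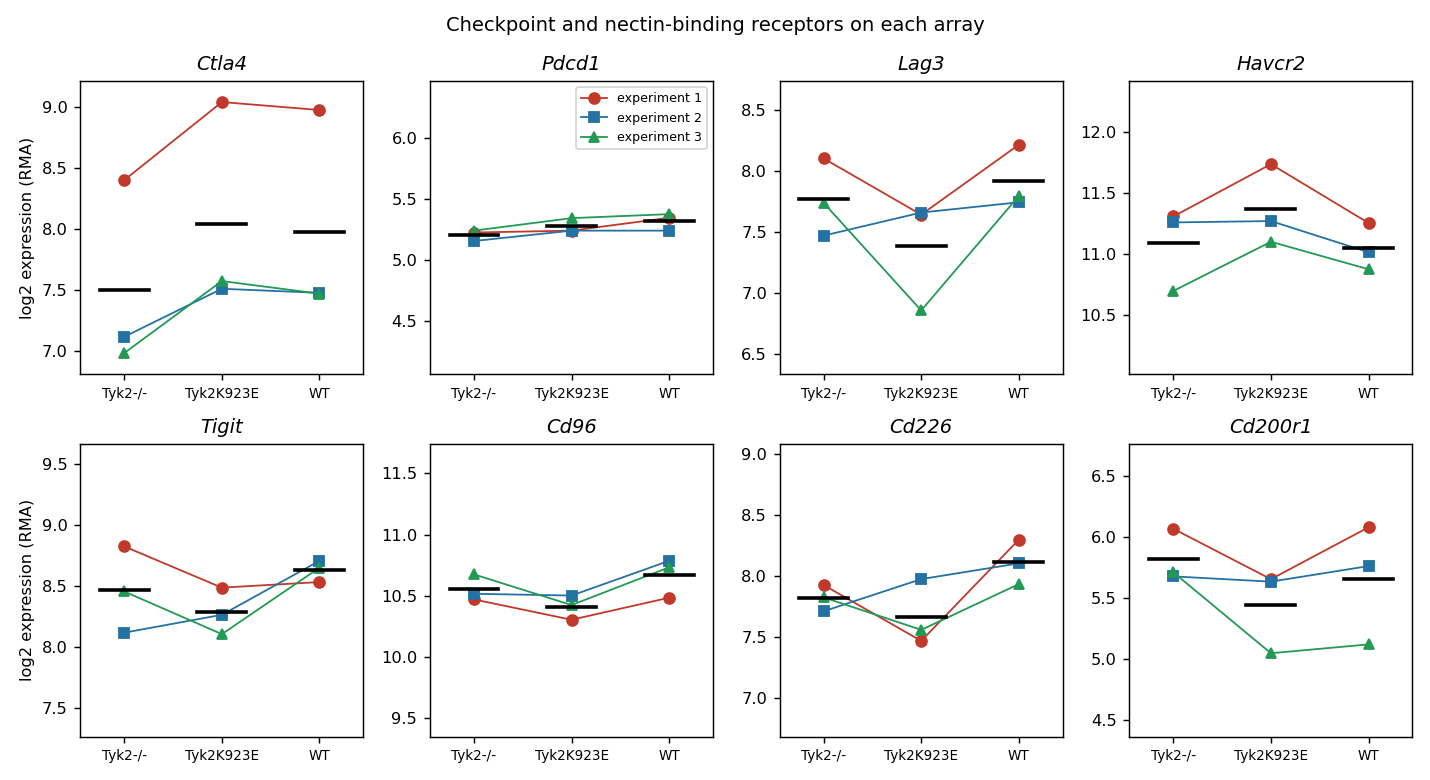
Log2 expression (RMA) of the 8 receptors on every array, with genotypes along the x axis, coloured lines joining the arrays of an experiment and black bars at the mean of 3 arrays. Ctla4 lies at 8.40 to 9.04 in experiment 1 and at 6.98 to 7.57 in experiments 2 and 3, and in each experiment its Tyk2-/- array is the lowest.

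Ctla4, on chromosome 1, read 8.40, 7.12 and 6.98 in Tyk2-/- cells of experiments 1, 2 and 3. It read 9.04, 7.51 and 7.57 in Tyk2K923E cells, and 8.97, 7.48 and 7.47 in WT cells. In every experiment the Tyk2-/- array was the lowest, while the Tyk2K923E and WT arrays lay close together, and the groups overlapped because the experiments stood so far apart. Within experiments Tyk2-/- differed from WT by -0.57, -0.36 and -0.49, with a mean of -0.47 (SE 0.07, 95% interval -0.63 to -0.32, unadjusted p = 1.01e-04, limma adjusted p = 0.0679). By p this was rank 18 of 12579 genes. Tyk2-/- differed from Tyk2K923E by -0.64, -0.39 and -0.59, with a mean of -0.54 (95% interval -0.69 to -0.39, limma adjusted p = 0.102), rank 4 by p. Tyk2K923E differed from WT by 0.07, 0.03 and 0.10 (mean 0.07, 95% interval -0.09 to 0.22, adjusted p = 0.8). Both Tyk2-/- differences thus missed the threshold over all genes. They passed when genes below the 70th percentile of the arrays were left out (adjusted p = 0.0343 against WT and 0.0428 against Tyk2K923E), and the adjusted p was 1 for both without pairing.

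The promoter of Ctla4 is shown because this receptor differed most in Tyk2-/- against WT cells and in experiment 1, that of Havcr2 because it also rose in experiment 1 and that of Cd96 because it alone held a motif searched for. The windows run from 250 bases before to 50 bases after the start of the gene and come from RefSeq on build GRCm38.p6 (chr1:60908775-60909074, plus strand; chr11:46454681-46454980, plus strand; chr16:46120199-46120498, minus strand). Capitals mark a match to TTCNNNGAA, the GAS element that STAT dimers bind.
Ctla4: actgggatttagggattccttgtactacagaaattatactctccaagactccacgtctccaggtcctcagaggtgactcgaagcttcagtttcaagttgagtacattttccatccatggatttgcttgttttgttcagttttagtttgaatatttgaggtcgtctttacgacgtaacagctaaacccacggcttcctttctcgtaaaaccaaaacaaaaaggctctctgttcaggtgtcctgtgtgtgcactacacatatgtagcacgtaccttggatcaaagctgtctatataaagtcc
Havcr2: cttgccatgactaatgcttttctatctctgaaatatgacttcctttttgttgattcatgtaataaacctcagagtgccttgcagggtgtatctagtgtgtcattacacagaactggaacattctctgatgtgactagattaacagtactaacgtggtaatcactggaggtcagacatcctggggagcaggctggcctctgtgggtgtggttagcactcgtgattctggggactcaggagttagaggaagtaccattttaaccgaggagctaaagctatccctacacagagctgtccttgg
Cd96: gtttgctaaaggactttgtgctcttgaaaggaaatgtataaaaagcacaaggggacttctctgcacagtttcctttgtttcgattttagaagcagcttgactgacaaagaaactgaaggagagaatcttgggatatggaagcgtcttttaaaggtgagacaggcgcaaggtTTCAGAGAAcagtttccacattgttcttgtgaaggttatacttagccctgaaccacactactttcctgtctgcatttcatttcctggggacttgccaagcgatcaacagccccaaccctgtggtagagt
Of the 8 receptors, 5 had a window in this table (Ctla4, Pdcd1, Havcr2, Tigit and Cd96). The GAS letters were present in Cd96, as TTCAGAGAA at position -79 from the start, and 8.30% of all 32851 windows held them. The core of the interferon-stimulated response element and the T-box site TCACACC, searched on both strands, were in none of the 5 windows, against 3.44% and 3.98% of all windows. A match is a description of the letters and not of binding, and their absence says nothing beyond these windows.

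Pdcd1, which encodes PD-1 and also lies on chromosome 1, was below the array median on all 9 arrays. It read 5.23, 5.16 and 5.24 in Tyk2-/- cells, 5.24, 5.24 and 5.35 in Tyk2K923E cells and 5.35, 5.24 and 5.38 in WT cells, and 4 arrays carried the same value. The 3 groups overlapped, and its highest and lowest arrays were 0.22 apart. In a fit without the filter it differed by -0.11 between Tyk2-/- and WT (95% interval -0.26 to 0.03, adjusted p = 0.82) and by -0.05 between Tyk2K923E and WT (95% interval -0.19 to 0.10, adjusted p = 0.9). No background was measured, so whether this reading lies above background was not tested.

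Lag3, on chromosome 6, encodes an inhibitory receptor for MHC class II. It read 8.10, 7.47 and 7.74 in Tyk2-/- cells, 7.64, 7.66 and 6.86 in Tyk2K923E cells and 8.22, 7.75 and 7.80 in WT cells. The 3 Tyk2K923E arrays lay below all 3 WT arrays, as they did for Tigit (2 of 7 receptors, against 3.80% of all genes), with differences of -0.57, -0.08 and -0.94 in experiments 1 to 3. The mean of these was -0.53 (SE 0.17, 95% interval -0.93 to -0.13, limma adjusted p = 0.348), and it ranged from -0.79 without Tyk2K923E replicate 2 (adjusted p = 0.0832) to -0.31 without Tyk2K923E replicate 3. Tyk2-/- differed from WT by -0.15 (95% interval -0.55 to 0.25), which turned to 0.03 without Tyk2-/- replicate 2. Lag3 differed by 0.38 between Tyk2-/- and Tyk2K923E (95% interval -0.01 to 0.78, adjusted p = 0.521), and experiment 2 went the other way there (-0.19).

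Havcr2, on chromosome 11, encodes TIM-3, which is known to rise on activated NK cells. It read 11.31, 11.26 and 10.70 in Tyk2-/- cells, 11.74, 11.27 and 11.10 in Tyk2K923E cells and 11.25, 11.02 and 10.88 in WT cells. The Tyk2K923E array was above the WT array in every experiment, by 0.48, 0.26 and 0.23, although the groups overlapped. The mean was 0.32 (SE 0.10, 95% interval 0.10 to 0.54, limma adjusted p = 0.301). Havcr2 and Ctla4 were the 2 of the 7 tested receptors whose Tyk2K923E array was above WT in all 3 experiments, against 16.2% of all genes. Tyk2-/- differed from WT by 0.04 (95% interval -0.18 to 0.26), with a mixed sign, and from Tyk2K923E by -0.28 (95% interval -0.50 to -0.06, adjusted p = 0.452).

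Tigit, Cd96 and Cd226 form the nectin-binding group. Tigit, on chromosome 16, read 8.82, 8.12 and 8.45 in Tyk2-/- cells, 8.48, 8.26 and 8.10 in Tyk2K923E cells and 8.53, 8.70 and 8.65 in WT cells. All Tyk2K923E arrays were below all WT arrays, by 0.05 in experiment 1 and by more in the others, where the differences were -0.44 and -0.54. The mean was -0.34 (95% interval -0.69 to -0.003, limma adjusted p = 0.492). The Tyk2-/- arrays spread most widely, with an SD of 0.35 against 0.19 in Tyk2K923E and 0.09 in WT (n = 3 each). Their difference from WT was 0.29 in experiment 1 and -0.59 and -0.19 in experiments 2 and 3 (mean -0.16, 95% interval -0.50 to 0.18), so it had no common sign.

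Cd96, on chromosome 16 as well, read 10.47, 10.52 and 10.67 in Tyk2-/- cells, 10.30, 10.50 and 10.42 in Tyk2K923E cells and 10.48, 10.79 and 10.73 in WT cells. Its Tyk2K923E array was below WT in every experiment, with differences of -0.18, -0.28 and -0.31, and these 3 differences lay closer together than those of Lag3, Tigit or Cd226. The mean was -0.26 (SE 0.07, 95% interval -0.42 to -0.10, unadjusted p = 0.00608, limma adjusted p = 0.243). In Tyk2-/- cells the differences from WT were -0.01, -0.27 and -0.06 (mean -0.11, 95% interval -0.28 to 0.05).

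Cd226, the activating member, lies on chromosome 18. It read 7.93, 7.71 and 7.83 in Tyk2-/- cells, 7.47, 7.97 and 7.56 in Tyk2K923E cells and 8.30, 8.10 and 7.93 in WT cells. All 3 Tyk2-/- arrays were below all 3 WT arrays (1 of 7 receptors, against 2.74% of all genes), although the nearest arrays of both read 7.93 and differed only beyond the second decimal. Tyk2-/- differed from WT by -0.37, -0.39 and -0.11 (mean -0.29, 95% interval -0.61 to 0.03, limma adjusted p = 0.58). Tyk2K923E differed from WT by -0.83, -0.13 and -0.37 (mean -0.44, 95% interval -0.76 to -0.13, adjusted p = 0.314), and the mean was -0.25 without experiment 1. Between the mutants Cd226 differed by 0.15 (95% interval -0.16 to 0.47), with a mixed sign.

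The activating and the inhibitory members of the nectin-binding group thus had mean differences of the same sign from WT in both mutants. In Tyk2-/- cells the Tigit differences had no common sign, at 0.29, -0.59 and -0.19 in experiments 1 to 3. In Tyk2K923E cells Tigit, Cd96 and Cd226 were each below WT in all 3 experiments, as were Lag3 and Cd200r1 (5 of 7 receptors, against 14.6% of all genes). In Tyk2-/- cells Ctla4, Lag3, Cd96 and Cd226 were below WT in all 3 (4 of 7, against 13.6%). These are counts of direction, and none of the genes passed the test. The median over the 7 receptors was -0.15 in Tyk2-/- and -0.26 in Tyk2K923E, where the medians of all genes were 0.004 and 0.002.

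Cd200r1, on chromosome 16, encodes an inhibitory receptor that is also known as a marker of type 1 innate lymphoid cells (ILC1). It read 6.07, 5.68 and 5.71 in Tyk2-/- cells, 5.66, 5.64 and 5.05 in Tyk2K923E cells and 6.08, 5.76 and 5.12 in WT cells. It reached the array median on 7 of 9 arrays and missed it in the Tyk2K923E and WT cells of experiment 3. The Tyk2-/- arrays were above all Tyk2K923E arrays (1 of 7 receptors, against 2.89% of all genes), with differences of 0.41, 0.04 and 0.66 (mean 0.37, 95% interval 0.07 to 0.68, limma adjusted p = 0.462). Tyk2-/- differed from WT by -0.01, -0.08 and 0.59, so the mean of 0.16 rested on experiment 3 and was -0.05 without it. Tyk2K923E differed from WT by -0.42, -0.13 and -0.07 (mean -0.21, 95% interval -0.52 to 0.10, adjusted p = 0.677). Probe sets of related Cd200r genes may share signal, which was not tested.

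**Figure D2:**
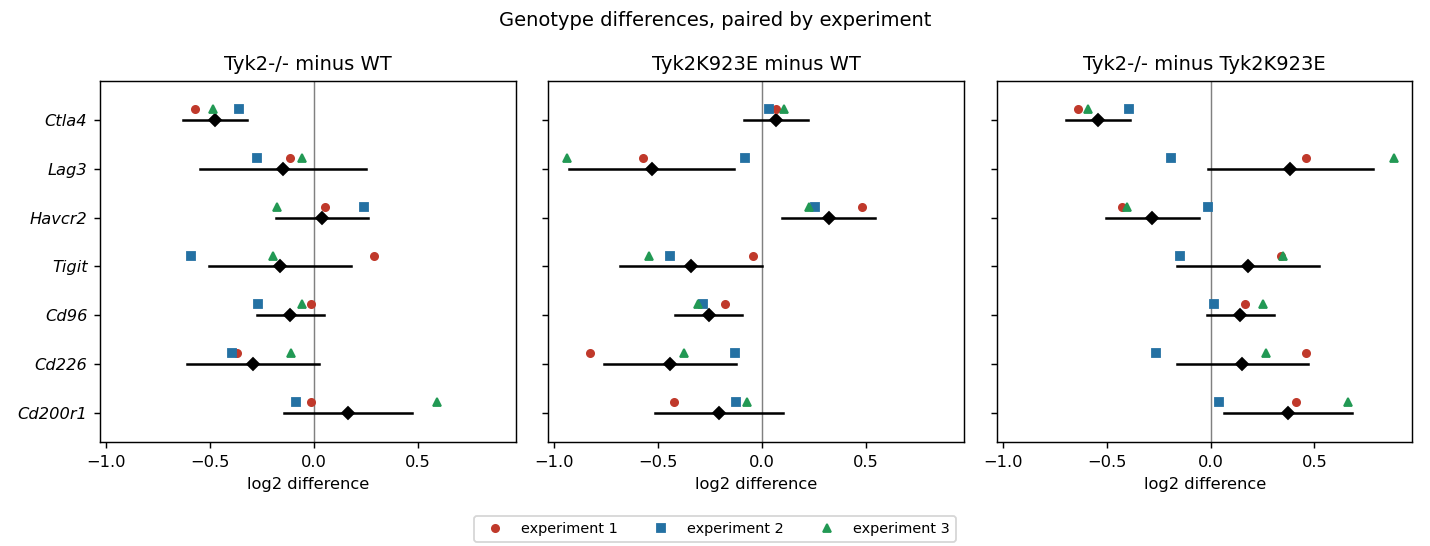
Log2 differences of the 7 tested receptors in 3 comparisons, with diamonds at the mean of 3 paired differences, black bars for the unadjusted 95% interval of the limma fit and coloured points for single experiments. Ctla4 sits at -0.47 and -0.54 in the 2 comparisons of Tyk2-/- cells and at 0.07 between Tyk2K923E and WT cells.

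Experiment 1 was set against experiments 2 and 3 within the same fit, with genotype as a term. In experiment 1 Ctla4, Havcr2 and Cd200r1 rose and Cd96 fell, so that 4 of the 7 receptors passed an adjusted p of 0.05, against 36.0% of all genes. By direction, 3 of 7 were called higher (16.2% of all genes) and 1 lower (19.9%). Ctla4 differed by 1.45 (SE 0.06, 95% interval 1.32 to 1.58, limma adjusted p = 4.07e-05), a 2.73-fold rise, and had the smallest p of all 12579 genes and rank 11 by size. Its 3 arrays of experiment 1 (8.40 to 9.04) were above the 6 others (6.98 to 7.57), and it was the only one of the 7 receptors with no overlap, where 14.5% of all genes lay wholly above and 18.7% wholly below. The arrays of an experiment share that experiment, and the split was proposed with results of these data known, so these p-values compare these 3 experiments only and are no replicate test of a condition.

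The rise of Ctla4 in experiment 1 was of like size in each genotype, at 1.35 in Tyk2-/-, 1.50 in Tyk2K923E and 1.50 in WT cells, and was 1.44 against experiment 2 and 1.46 against experiment 3. Against experiment 2 alone it was the 1 receptor called (28.5% of all genes), and against experiment 3 alone 3 were called (32.0%). Havcr2 rose by 0.40 (95% interval 0.20 to 0.59, adjusted p = 0.00761), with 0.33 in Tyk2-/-, 0.55 in Tyk2K923E and 0.31 in WT cells. The call of Havcr2 was lost without Tyk2K923E replicate 1 (adjusted p = 0.0503) and against experiment 2 alone (0.0904). Cd200r1 rose by 0.44 (95% interval 0.18 to 0.71, adjusted p = 0.0189), and its call was lost without WT replicate 1 (0.113), without Tyk2-/- replicate 1 (0.0541) and against experiment 2 alone (0.24, adjusted p = 0.217), whereas the difference from experiment 3 was 0.64. Cd96 fell by 0.19 (adjusted p = 0.0432), a call lost in 14 of 17 alternatives, among them the omission of any single array except Tyk2-/- replicate 2.

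Among the receptors that did not pass, Lag3 differed by 0.44 (95% interval 0.10 to 0.79, adjusted p = 0.0502) and was above the mean of experiments 2 and 3 in all genotypes. Lag3 passed in 5 of 17 alternatives, for example without Tyk2K923E replicate 2 (0.57, adjusted p = 0.00344) or without Tyk2-/- replicate 3 (0.52, adjusted p = 0.04). Tigit differed by 0.54 in Tyk2-/- and 0.30 in Tyk2K923E cells but by -0.15 in WT cells (mean 0.23, adjusted p = 0.202), and passed without WT replicate 1 (adjusted p = 0.0351). Cd226 had a mean of 0.05 (95% interval -0.23 to 0.32) with a mixed sign.

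**Figure D3:**
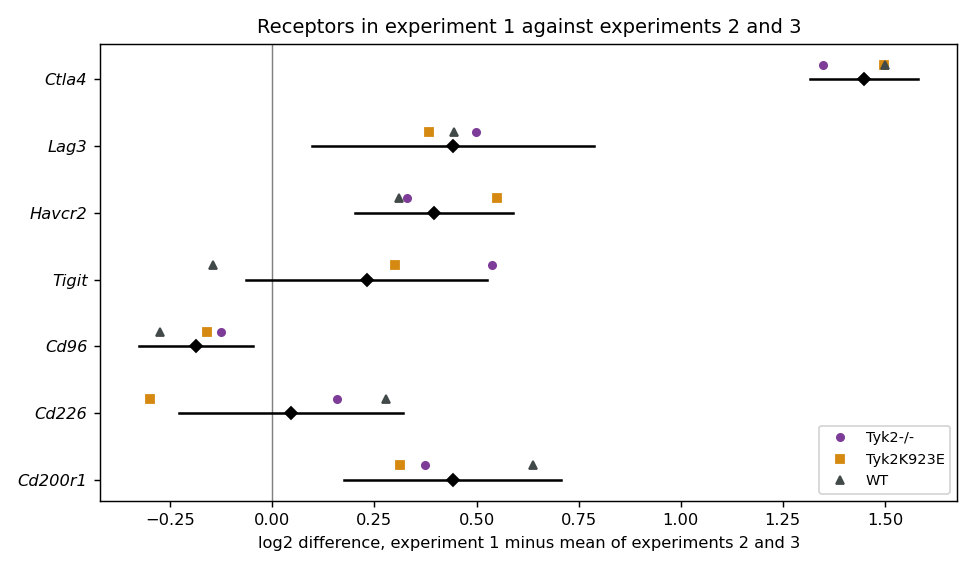
Log2 difference of experiment 1 from the mean of experiments 2 and 3 for the 7 tested receptors, with diamonds and black bars for the limma estimate and its unadjusted 95% interval and coloured points for single genotypes. Ctla4 stands at 1.45, and the 6 others lie between -0.19 and 0.44.

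The spread of each receptor over the 9 arrays was divided into the parts that go with experiment and with genotype, as a description. For Ctla4, 88.6% of the variance went with the experiment, 10.99% with the genotype and 0.418% with neither. The receptors whose genotype share was largest were Cd226 (56.5%), Cd96 (51.4%), Pdcd1 (48.1%) and Lag3 (37.5%), while Havcr2 (62.7%) and Cd200r1 (61.7%) went mainly with the experiment. Pdcd1 was below the median on all 9 arrays and was not tested, and its share divides a range of only 0.22. Tigit left 44.4% with neither. Over all genes tested, the medians were 47.1% for experiment, 15.5% for genotype and 27.6% for neither.

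The ligands of these receptors on the same cultures were examined next, since NK cells can carry both sides of a pair. Of 18 ligand genes 12 were tested, and 0 passed in either mutant against WT, with 6 of 12 below WT in Tyk2-/- and 5 of 12 in Tyk2K923E. Lgals9, which encodes the TIM-3 ligand galectin-9, had the smallest p of the list in both. It read 11.01, 10.93 and 10.96 in Tyk2-/- cells, 11.03, 10.99 and 10.63 in Tyk2K923E cells and 11.56, 11.19 and 11.09 in WT cells. All arrays of both mutants lay below the WT arrays, as held for 2.74% of all genes in Tyk2-/- and 3.80% in Tyk2K923E. The differences were -0.32 in Tyk2-/- (limma adjusted p = 0.439) and -0.40 in Tyk2K923E cells (limma adjusted p = 0.201). Pvr, the shared ligand of the nectin-binding group, differed from WT by -0.09 in Tyk2-/- and -0.02 in Tyk2K923E, and Nectin2 by 0.09 and 0.06. Nectin3, another ligand of the group, and Cd200, the ligand of CD200R1, were below the median on all 9 arrays. In experiment 1 the PD-1 ligand Cd274 rose by 0.55 (adjusted p = 0.00369), Ceacam1, reported as a TIM-3 ligand, by 0.40 (adjusted p = 0.00897) and Pvr by 0.22 (adjusted p = 0.0289), and 5 of 12 ligand genes were called higher and 1 lower, where 16.2% of all genes were called higher and 19.9% lower.

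Of 24 other checkpoint and costimulatory receptors 18 were tested. In Tyk2-/- cells 17 of 18 were below WT, with a median of -0.16 (0.004 over all genes) and 0 called. This is a count of direction over genes read on the same arrays. The smallest p belonged to Cd7 (-0.79, adjusted p = 0.218), an immunoglobulin-family coreceptor. In Tyk2K923E cells 11 of 18 were below WT and 1 passed (0.0874% of all genes). It was Cd160, a receptor for HVEM, which fell by 0.68 in Tyk2K923E cells (limma adjusted p = 0.0375, and 0.155 unpaired). Cd7 differed by -0.98 there (adjusted p = 0.0696) and was below WT in all 3 experiments, while Klrg1, an inhibitory receptor for cadherins, differed by 0.30 (adjusted p = 0.359). In experiment 1, 8 of 18 were called higher (16.2% of all genes) and 1 lower (19.9%). Cd200r4, a paralogue of Cd200r1, rose by 0.99 (adjusted p = 1.36e-04), Vsir, which encodes the checkpoint receptor VISTA, rose by 0.70 (adjusted p = 6.73e-04), and the collagen receptor gene Lair1 fell by 0.54 (adjusted p = 5.18e-04). Cd28 and Icos, the costimulatory receptors that flank Ctla4 on the chromosome, rose by 0.22 and 0.21 (adjusted p = 0.0311 and 0.0306), and Icos was chosen after its values were seen. In Tyk2-/- cells Cd28 and Icos differed from WT by -0.17 and -0.16 (adjusted p = 0.554 and 0.571), against -0.47 for Ctla4.

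Proteins that these receptors recruit, such as the phosphatases SHP-1 and SHIP-1, showed 0 calls in either mutant among 17 genes tested. Ptpn6, which encodes SHP-1, differed by -0.23 in Tyk2K923E cells (adjusted p = 0.434). Lrba, which protects CTLA-4 from lysosomal degradation, differed from WT by 0.24 in Tyk2-/- (adjusted p = 0.377) and by 0.17 in Tyk2K923E cells (adjusted p = 0.419). In experiment 1 Lrba fell by 0.27 (adjusted p = 0.00745), and 4 of 17 were called lower and 0 higher. The share called lower was near that of all genes (19.9% lower, 16.2% higher). Among 22 transcription factors tied to checkpoint receptors 0 passed in either mutant. The nearest was Nr4a2, an orphan nuclear receptor, at 0.47 in Tyk2K923E cells (adjusted p = 0.119), while Egr2 differed by -0.20 in Tyk2-/- and by -0.22 in Tyk2K923E cells. The factors called in experiment 1 were 6 of 22 higher (16.2% of all genes) and 3 lower (19.9%), together a share near the 36.0% of all genes, with Prdm1, which encodes Blimp-1, at 0.48 (adjusted p = 4.16e-04) and Runx3 at 0.31 (adjusted p = 0.00199).

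Several of the receptors are carried by T cells, ILC1 and basophils or mast cells too, so markers of these cells are given beside the results. T cell markers were below WT in 12 of 13 tested members in Tyk2K923E cells, with a median of -0.36 and 0 called, and in 11 of 13 in Tyk2-/- cells, with a median of -0.09. The medians of all genes were 0.002 and 0.004, and these are counts of direction over genes read on the same arrays. In Tyk2K923E cells the smallest p-values of the list belonged to Bcl11b (-0.42, limma adjusted p = 0.0521), Lat (-0.48, adjusted p = 0.0696) and Cd8a (-0.92, adjusted p = 0.173). The mean level of the T cell markers over 15 genes was 7.68 to 7.92 in Tyk2-/-, 7.44 to 7.70 in Tyk2K923E and 7.68 to 8.02 in WT cells. In experiment 2 it was almost equal on the 3 arrays, at 7.68 to 7.70, and there the Tyk2K923E difference was also the smallest of the 3 experiments for Lag3 (-0.08) and Cd226 (-0.13), but not for Tigit (-0.44) or Cd96 (-0.28). ILC1 markers were below WT in 6 of 6 tested members in both mutants, with medians of -0.17 in Tyk2-/- and -0.32 in Tyk2K923E cells. These too are counts of direction over genes read on the same arrays. The mean levels of the ILC1 markers were 7.80 to 7.86 in Tyk2-/-, 7.46 to 8.001 in Tyk2K923E and 7.99 to 8.12 in WT cells. Of these 1 passed in Tyk2-/- cells (0.0874% of all genes) and 0 in Tyk2K923E cells. It was Itga1, which encodes CD49a and fell by 0.60 in Tyk2-/- cells (limma adjusted p = 0.0345, and 0.0571 unpaired). Of the B cell markers 1 of 7 with a probe set and of the myeloid markers 4 of 12 passed the filter, with 0 called in either mutant. Of the basophil and mast cell markers 2 of 6 passed the filter. The basophil protease gene Mcpt8 differed by 0.49 in Tyk2-/- and 0.77 in Tyk2K923E cells and the mast cell gene Cpa3 by -0.02 and 0.91, without being called. Over the 9 arrays, WT among them, Mcpt8 read 9.87 to 11.06 and Cpa3 6.13 to 7.60. Fcer1a, another marker of the list, and Cd200r3, known from these cells, were below the median on all arrays. NK cell markers were below WT in 9 of 14 members in Tyk2-/- cells, with a median of -0.17 and 0 called. In Tyk2K923E cells 8 of 14 were below WT, with a median of -0.08, and 1 passed (0.0874% of all genes). It was Itga2, which encodes the DX5 antigen used for enrichment and fell by 0.71 in Tyk2K923E cells (limma adjusted p = 0.0375, and 0.155 unpaired). The part of these cells in the receptor differences was not tested.

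Between experiments the mean level of the T cell markers was 7.44 to 7.90 in experiment 1, 7.68 to 7.70 in experiment 2 and 7.59 to 8.02 in experiment 3. Of 13 tested members 9 were lower in experiment 1. Cd28 (0.22) was the 1 called higher (16.2% of all genes) and Lat (-0.25, adjusted p = 0.0172) the 1 called lower (19.9%). The mean of the NK cell markers was 11.19 to 11.32 in experiment 1, against 11.12 to 11.31 in experiment 2 and 11.04 to 11.24 in experiment 3. Of these 14 markers 8 were lower in experiment 1, with a median of -0.06. Of them 4 were called higher (16.2% of all genes) and 2 lower (19.9%). Fcgr3, which encodes the Fc receptor CD16, rose by 0.84 in experiment 1 (adjusted p = 1.28e-04) and Klrd1, which encodes CD94, by 0.54 (adjusted p = 4.44e-04), whereas Ncr1, which encodes NKp46, fell by 0.46 (adjusted p = 0.00762) and the granule gene Nkg7 fell by 0.18 (adjusted p = 0.0324). Of the ILC1 markers 5 of 6 were higher with 0 called, and 1 was called lower (19.9% of all genes). This was the chemokine gene Xcl1, which fell by 0.49 (adjusted p = 0.0033). The myeloid markers were higher in 4 of 4 tested members, and 2 were called higher (16.2% of all genes). These were the macrophage gene Cd68 (0.50, adjusted p = 0.00917) and Cd14, which encodes a lipopolysaccharide coreceptor (0.29, adjusted p = 0.00956). The mean level of the 12 myeloid markers was 5.59 to 5.70 in experiment 1, against 5.46 to 5.62 in experiment 2 and 5.56 to 5.61 in experiment 3. Ncr1 and Nkg7 were named after their values were seen. The part of these cells in the differences between experiments was not tested.

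**Figure D4:**
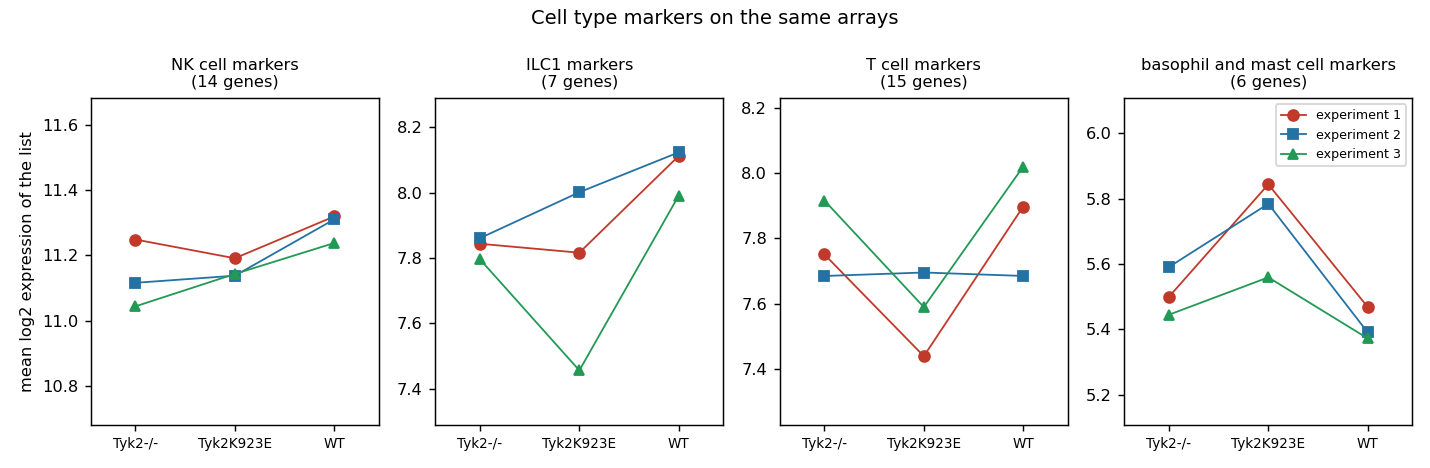
Mean log2 expression over all marker genes with a probe set, for NK cells (14 genes), ILC1 (7 genes), T cells (15 genes) and basophils and mast cells (6 genes), with genotypes along the x axis and lines joining the arrays of an experiment; each panel spans 1 log2 unit. The T cell mean of the Tyk2K923E array is below that of WT in experiments 1 and 3, and in experiment 2 all 3 arrays lie at 7.68 to 7.70.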

How the data were processed

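Per the submitters' processing notes, the deposited log2 values were made by the authors with RMA in Partek 6.6. They were analysed as deposited, over 41345 probe sets. The version of RMA and the genome build are not given in the sources used here. Of the probe sets, 23521 carried 1 gene symbol in the platform annotation, 1814 several and 16010 were not listed, and the RefSeq table (GRCm38.p6) gave chromosomes and promoters. The brightest passing probe set stood for a gene. The fit was limma 3.58.1 in R 4.3.3 (group means plus experiment, 9 arrays, prior degrees of freedom 4.01), with Python 3.11.15 and matplotlib 3.10.9 for motifs and plots. Intervals are at 95% and unadjusted. The procedure was tested on simulated data.

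The labels state 3 independent experiments and number them, which pairs the arrays. Deviations from the genotype mean correlated at 0.38 to 0.79 between arrays of the same experiment (9 pairs) and at -0.71 to 0.56 otherwise (18 pairs). Arrays of experiment 2 against those of experiment 3 correlated at 0.25 to 0.56, which overlaps the range within an experiment. The correlations thus do not set experiments 2 and 3 apart, and their pairing rests on the labels. The receptors, gene lists and tests were chosen with earlier results of these data known. The rule named all 8 receptors, 6 of their ligands and, per list, up to 3 genes with the smallest p in a comparison with WT or between experiments. Alternatives were no or a random block, only the genotypes compared, other filters and normalisations, the mean over probe sets, no genotype term, single contrasts of experiments and leaving out each array or experiment.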

Additional observations from a re-analysis of the deposited data

How the results depend on the processing

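The number of receptors called stayed at 0 in Tyk2K923E against WT under all 17 alternatives and in the comparisons of Tyk2-/- under 16 of 17, the exception being the 70th percentile filter, which tests fewer genes and called 1 receptor (Ctla4) in each. Without the replicate block, that is without pairing, 0 receptors were called in all 3 comparisons. In experiment 1 the count of 4 ranged from 2 to 4 when an array was left out and was 1 against experiment 2 alone. Against WT, leaving out an array or an experiment turned the sign of 4 Tyk2-/- differences, none of them past the threshold. They were Cd200r1 (-0.048 to 0.31), Havcr2 (-0.079 to 0.15), Lag3 (-0.29 to 0.027) and Tigit (-0.39 to 0.049). Cd226 ranged from -0.019 to 0.36 between Tyk2-/- and Tyk2K923E and from -0.070 to 0.22 in experiment 1, and was -0.032 against experiment 2 alone. The cause was not tested. Over all genes, 11 genes were called in Tyk2-/- and 11 in Tyk2K923E against WT. These counts were 4 and 1 with no filter, 19 and 29 with the 70th percentile filter, 4 and 1 without the block, 6 and 2 with the 2 genotypes only, 3 to 10 and 1 to 6 without an array or experiment, and 20 (median centring) and 17 (quantile normalisation) in Tyk2K923E. Between the mutants 3 genes were called, or 2 to 6 without an array or experiment.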
